A study of Mus musculus with 8 samples.

Results

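Myc and 34 genes of ribosome biogenesis were followed in cultured mouse pancreatic cancer cells exposed to vesicles that T cells shed (extracellular vesicles, EVs, small membrane-wrapped particles). The 35 genes were taken by symbol, and all 35 were found among the 42687 genes of the count table and among the 15197 genes that passed the expression filter. The symbols fall into 7 roles, with 1 regulator (Myc), 3 subunits of RNA polymerase I, 7 proteins of the nucleolar scaffold, 4 proteins of box C/D and 4 of box H/ACA small nucleolar ribonucleoproteins (snoRNPs), 5 factors of the small subunit and 11 of the large subunit.

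The cells were 1 low-immunogenic clone derived from KPCY mice. The alleles of that model given here are Trp53LSL-R172H/+, recombined by Pdx1-Cre in the pancreatic lineage, and a YFP reporter at Rosa26 (Rosa26YFP/YFP), so all groups carry mutant Trp53 and the reporter, although the genotype label of every sample reads WT. ATEV cells received 15 µg/mL of ATEVs, read here as EVs of activated T cells by contrast with the label of the next group. NTEV cells received EVs of non-activated T cells at 30 µg/mL, and these amounts of ATEVs and NTEVs are read here as each holding 5 µg/mL of EV-DNA. DNase-treated ATEV cells received 15 µg/mL of ATEVs that had been incubated with the enzyme Baseline-ZERO DNase, and PBS cells received buffer. In every group the cells were harvested a day after exposure and reseeded, and this was done 8 times before poly(A) RNA was sequenced. Each of the 4 groups has 2 libraries, numbered 1 and 2. Whether the 2 were grown as separate cultures is not in the labels, so a p-value here reflects only how far these libraries differ, which can be technical.

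Ribosomes are assembled in the nucleolus. RNA polymerase I transcribes a long precursor of ribosomal RNA, snoRNPs of the C/D kind guide its methylation and those of the H/ACA kind guide its pseudouridylation, and separate sets of factors fold and cut the parts that become the small and the large subunit. MYC is a transcription factor that binds the E-box letters CACGTG with its partner MAX and drives many of these genes, and many tumours, pancreatic cancer among them, are known to depend on high MYC and on ribosome production.

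The libraries held between 34385326 and 52451398 counts. The library numbered 2 of each EV group stood apart for the genes described here, and its values are therefore given one by one below. The 10 ductal epithelial markers, which include keratins and Epcam, summed to between 8844 and 11825 CPM (TMM-scaled counts-per-million) in the 8 libraries, with none at 0. Of 10 T cell markers, 3 to 6 were at 0 in each library, and the list summed to between 6.27 and 11.7 CPM. Acinar, endothelial and fibroblast lists each summed to less than 10.6 CPM in every library, and 6 myeloid markers summed to 155 and 168 CPM in ATEV, 108 and 125 CPM in NTEV, 274 and 201 CPM in DNase-treated ATEV and 103 and 69.3 CPM in PBS libraries. Most of this came from Cd14, which rose with DNase-treated ATEV (adjusted p = 0.0284). In bulk RNA, fewer cells with a transcript and less transcript per cell cannot be told apart.

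RefSeq promoters (250 bases before to 50 after a start site, build GRCm38.p6) were listed for 29 of the 35 genes. The letters CACGTG, which read the same on both strands, occurred in 6 of these 29 genes, or 20.7%, against 8.09% of the 27025 genes in that promoter table. These stretches are shown because they hold the MYC:MAX recognition letters, in capitals, within the promoters of 6 of the genes described; positions count from the start site.
Nop2, chr6:125131811-125131840, + strand, motif beginning at -60: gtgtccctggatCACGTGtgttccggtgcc
Pes1, chr11:3963965-3963994, + strand, motif beginning at 3: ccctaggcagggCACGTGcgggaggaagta
Wdr43, chr17:71616220-71616249, + strand, motif beginning at 18: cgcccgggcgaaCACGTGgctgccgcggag
Grwd1, chr7:45830740-45830767, - strand, motif beginning at 35: gggccggagtcgCACGTGtgaaaccgga
Utp20, chr10:88826765-88826789, - strand, motif beginning at 38: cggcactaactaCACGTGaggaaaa
Mybbp1a, chr11:72441355-72441376, + strand, motif beginning at 41: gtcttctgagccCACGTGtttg

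A further 2 promoters are shown over the 150 bases before the start site. They belong to Ncl, which had the lowest fold change of the 35 with DNase-treated ATEV against PBS and varied widely between libraries, and to Nop10, which lay below PBS in all EV libraries over a narrower range. Neither window holds CACGTG.
Ncl, chr1:86359456-86359605, - strand: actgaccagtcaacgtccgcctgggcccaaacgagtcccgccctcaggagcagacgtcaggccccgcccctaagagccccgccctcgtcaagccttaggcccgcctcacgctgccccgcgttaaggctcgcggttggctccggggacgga
Nop10, chr2:112261776-112261925, + strand: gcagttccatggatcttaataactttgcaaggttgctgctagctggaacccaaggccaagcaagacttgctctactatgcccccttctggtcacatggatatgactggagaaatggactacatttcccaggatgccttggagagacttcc

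The 6 genes with the motif had a median log2 fold change of -0.25 for ATEV, -0.32 for NTEV and -0.52 for DNase-treated ATEV, each against PBS. The 23 listed genes without it had medians of -0.52, -0.56 and -0.51 in the same order. A match is a description of the letters in a window and not evidence of binding.

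Myc itself (ENSMUSG00000022346, chromosome 15) overlapped between all groups. It had 259 and 211 CPM in ATEV libraries, 275 and 224 CPM in NTEV libraries, 284 and 207 CPM in DNase-treated ATEV libraries and 239 and 248 CPM in PBS libraries. In each EV group library 1 lay above both PBS libraries and library 2 below both, so every EV group overlapped with PBS. The log2 fold change against PBS was -0.053 ± 0.20 for ATEV, 0.032 ± 0.20 for NTEV and 0.0091 ± 0.20 for DNase-treated ATEV (± SE of the edgeR quasi-likelihood fit, n = 2 each), with Benjamini-Hochberg adjusted p of 0.898, 0.933 and 0.983. Its sign turned with the library left out: over the leave-one-out fits the value ran from -0.16 to 0.088 for ATEV, from -0.082 to 0.17 for NTEV and from -0.20 to 0.23 for DNase-treated ATEV.

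None of the 35 genes passed an adjusted p of 0.05 in any comparison with PBS. The share of all tested genes that passed was 5.19% for ATEV, 1.11% for NTEV and 3.01% for DNase-treated ATEV. At an unadjusted p under 0.05, edgeR had 2 of the 35 lower with ATEV (Npm1 and Nop10) and none higher, against 10.3% of all genes lower. It had 5 lower with NTEV (Npm1, Fbl, Gar1, Nop10 and Nip7), against 8.85% of all genes, and 4 lower with DNase-treated ATEV (Ncl, Fbl, Gar1 and Nop10), against 10.9%. DESeq2 called 2 genes lower with ATEV, Npm1 (adjusted p = 0.00788) and Nop10 (adjusted p = 0.0341), 1 with NTEV, Npm1 (adjusted p = 0.0128), and 0 with DNase-treated ATEV. Over all genes to which DESeq2 gave an adjusted p, it called 8.97%, 4.68% and 9.51%.

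Most fold changes nevertheless lay below 0. Of the 35, 34 were below 0 for ATEV, 33 for NTEV and 33 for DNase-treated ATEV, with medians of -0.42, -0.52 and -0.46 on the log2 scale. The medians over all tested genes were -0.019, -0.00062 and 0, and 51.7%, 50.1% and 50% of all genes were below 0. Both libraries of the EV group lay below both PBS libraries for 14 genes with ATEV, where 27.3% of all genes did so, and for 20 genes each with NTEV and DNase-treated ATEV, where 30.9% of all genes did so in either comparison. All 6 EV libraries lay below both PBS libraries for 13 genes, against 15.3% of all genes, and these were Ncl, Npm1, Pa2g4, Fbl, Nop58, Dkc1, Gar1, Nop10, Pes1, Wdr12, Nop16, Nip7 and Ebna1bp2. The 3 comparisons share the PBS libraries, so they are not independent of each other.

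**Figure D1:**
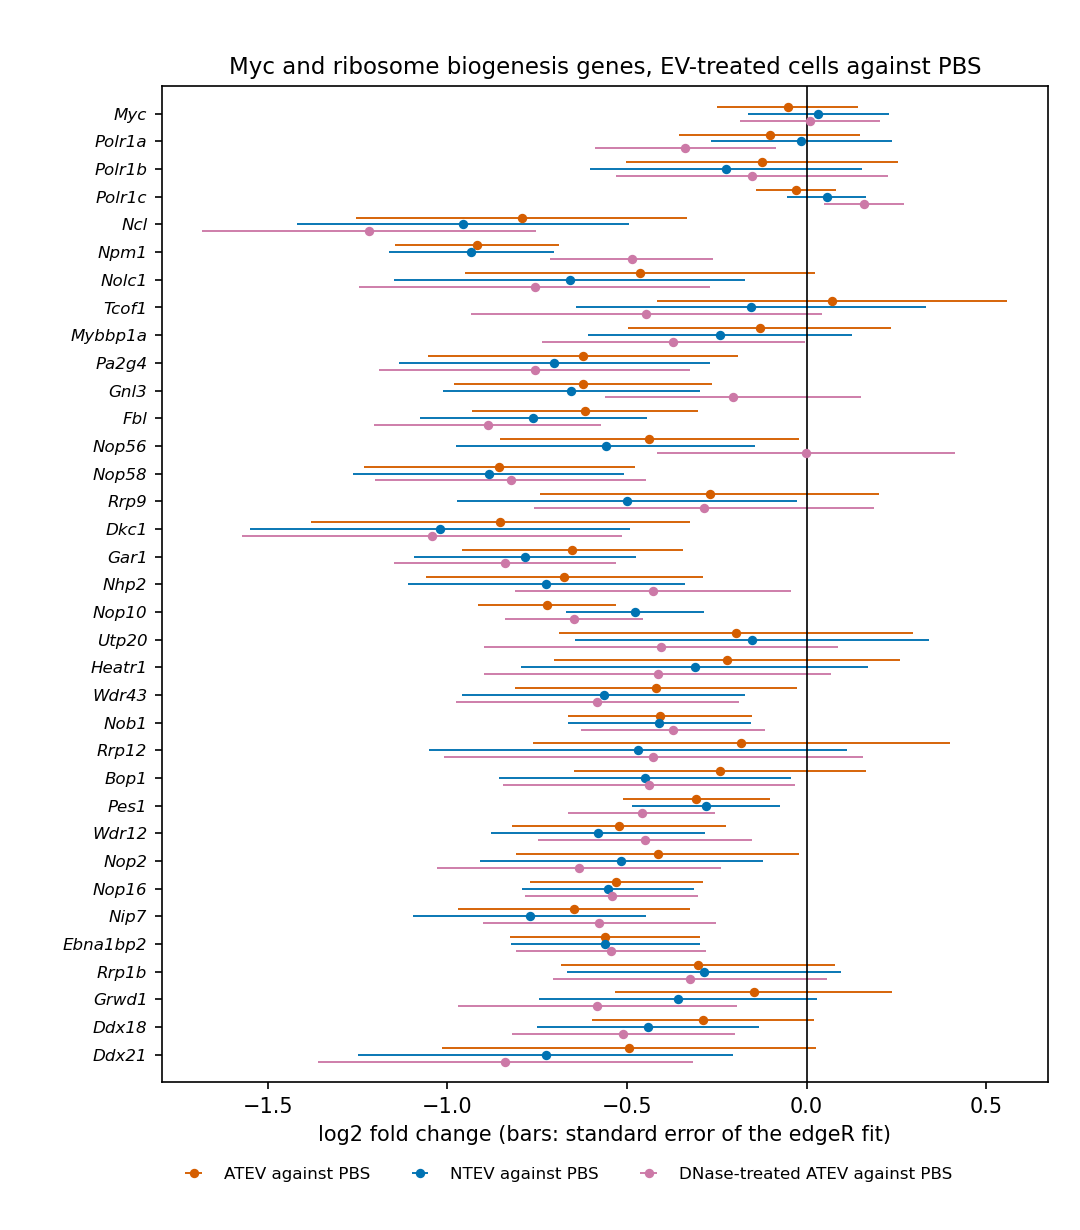
log2 fold changes of the 35 genes for ATEV, NTEV and DNase-treated ATEV cells against PBS cells, with points for the edgeR estimate and bars for its standard error (2 libraries a group). The points lie between -1.22 (Ncl, DNase-treated ATEV) and 0.16 (Polr1c, DNase-treated ATEV), nearly all left of 0, and the smallest adjusted p among them is 0.0684 (Npm1, ATEV).

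The size of these medians depended on the EV libraries numbered 2. With those left out one at a time, the median was -0.035 for ATEV, -0.23 for NTEV and -0.22 for DNase-treated ATEV, and 14, 9 and 10 of the 35 genes were then above 0. Without the library numbered 1 of the same group the medians were -0.88, -0.83 and -0.87. The median of the 35 genes against PBS was therefore below 0 in each of these fits, but its size rested largely on 1 library. For ATEV it went from -0.42 with all libraries to -0.035 without library 2. The median over all tested genes for ATEV was -0.019 in the fit with all libraries.

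The spread within groups was the larger pattern. Library 2 lay below library 1 for 35 of 35 genes in the ATEV group, for 34 of 35 in the NTEV group and for 35 of 35 in the DNase-treated ATEV group, whereas in the PBS group it did so for 2 of 35. The shares of all tested genes with library 2 below library 1 were 52.2%, 50.7%, 49.5% and 47.6% in the same order. The median difference between library 2 and library 1 was -0.88, -0.69 and -0.67 in the EV groups and 0.32 in the PBS group (log2 CPM). Summed over the 35 genes, the libraries held 8246 and 4578 CPM with ATEV, 7324 and 4750.1 CPM with NTEV, 7484 and 4830.3 CPM with DNase-treated ATEV and 8536 and 10298.5 CPM with PBS.

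In these sums the first EV libraries thus lay below both PBS libraries, and the second ones lay lower still. Ncl and Npm1, the most abundant of the 35, weigh most in them. By the median deviation from each gene's mean, ATEV 1 (0.34) lay above PBS 1 (0.193), and NTEV 1 and DNase-treated ATEV 1 (0.189 each) were level with it. PBS 2 was highest by that measure, at 0.53 (log2 CPM). The lowest of the 8 libraries was DNase-treated ATEV 2 for 22 genes, ATEV 2 for 11 and NTEV 2 for 2. The highest was PBS 2 for 22 genes, ATEV 1 for 9, DNase-treated ATEV 1 for 3 and PBS 1 for 1. The median within-group SD of the 35 genes was 0.62 in ATEV, 0.49 in NTEV, 0.47 in DNase-treated ATEV and 0.23 in PBS (log2 CPM), against 0.24, 0.20, 0.21 and 0.15 over all tested genes. The labels do not say what the numbers 1 and 2 stand for.

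**Figure D2:**
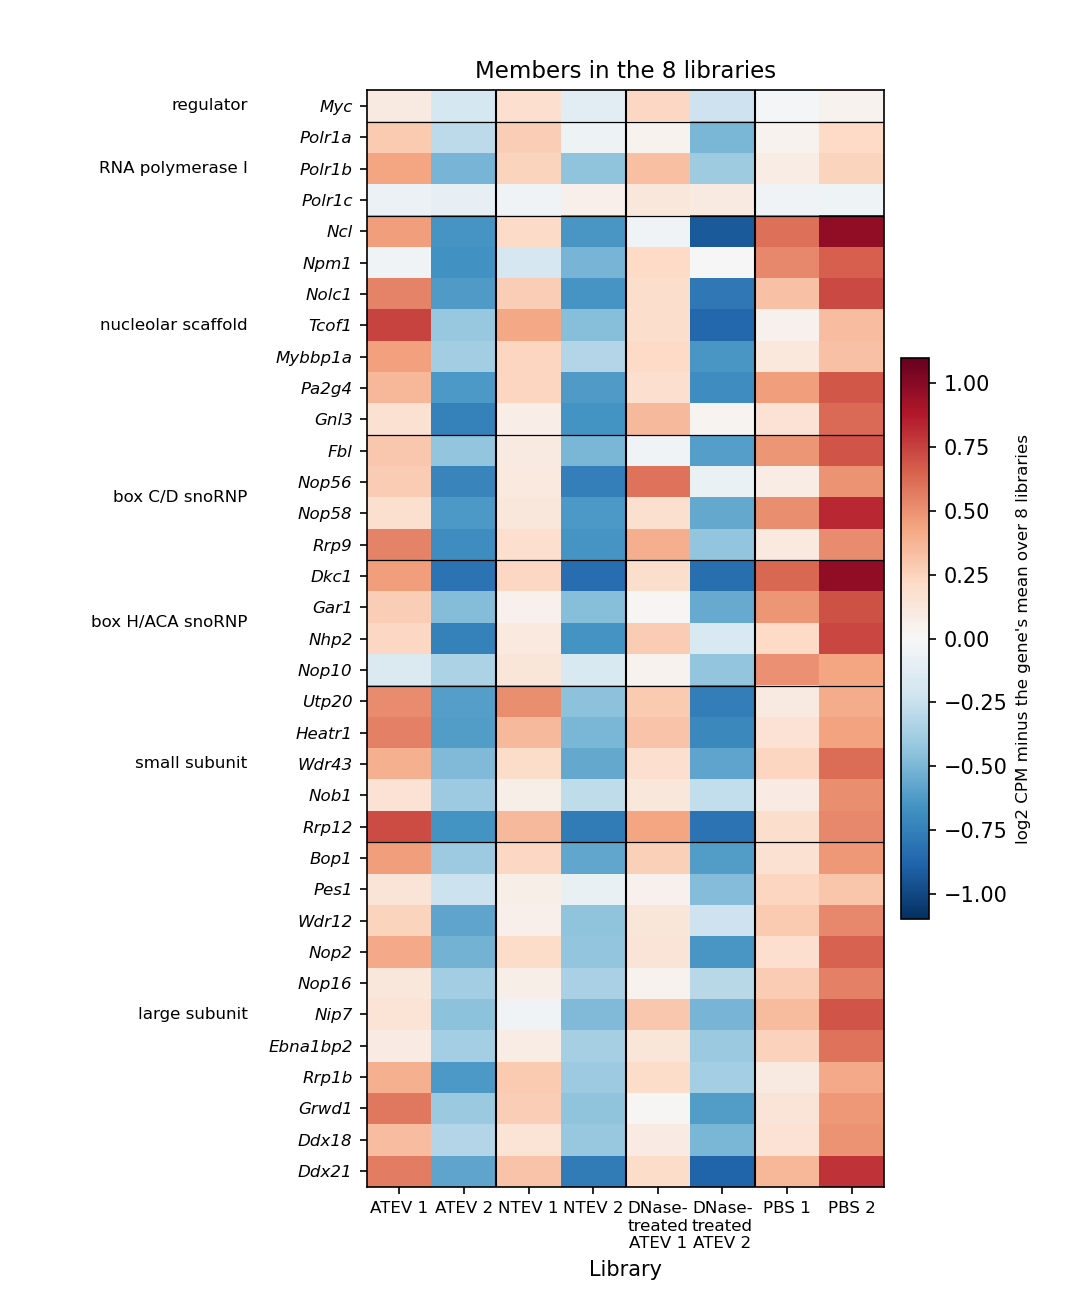
log2 CPM of each of the 35 genes in the 8 libraries minus the gene's mean over the libraries, with genes in rows grouped by role, libraries in columns grouped by treatment, and red above and blue below the mean. The columns of ATEV 2, NTEV 2 and DNase-treated ATEV 2 are blue for nearly all genes, while PBS 2 is red, and Myc and Polr1c stay pale.

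Among the RNA polymerase I genes, Polr1a, which encodes the largest subunit, had 184 and 123 CPM in ATEV, 182 and 145 CPM in NTEV, 155 and 107 CPM in DNase-treated ATEV and 155 and 175 CPM in PBS libraries. Its libraries overlapped with PBS for ATEV and NTEV, while both DNase-treated ATEV libraries lay below both PBS libraries by a narrow margin (log2 fold change -0.34 ± 0.25, adjusted p = 0.425). Polr1b, the second-largest subunit, overlapped with PBS in every EV group, at log2 fold changes of -0.12, -0.22 and -0.15 for ATEV, NTEV and DNase-treated ATEV. Polr1c, a subunit shared with RNA polymerase III, had 84.6 and 83.0 CPM in ATEV, 85.9 and 92.0 CPM in NTEV, 96.5 and 94.7 CPM in DNase-treated ATEV and 85.9 and 85.3 CPM in PBS libraries. It had the narrowest range over the 8 libraries of the 35 genes, 0.22 on the log2 scale, and was highest in both DNase-treated ATEV libraries. Its log2 fold change for DNase-treated ATEV against PBS was 0.16 ± 0.11 (adjusted p = 0.394).

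In the nucleolar scaffold, Ncl encodes nucleolin, an abundant protein that binds precursor ribosomal RNA. It had 1583 and 734 CPM in ATEV, 1333 and 736 CPM in NTEV, 1121 and 605 CPM in DNase-treated ATEV and 1747 and 2267 CPM in PBS libraries. All 6 EV libraries lay below PBS, and the libraries of a group differed by up to 1.11 on the log2 scale. The log2 fold change was -0.79 ± 0.46 for ATEV (adjusted p = 0.360), -0.96 ± 0.46 for NTEV (adjusted p = 0.30) and -1.22 ± 0.46 for DNase-treated ATEV (adjusted p = 0.169), the last being the lowest of the 35 in that comparison.

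Npm1 encodes nucleophosmin, a histone chaperone and scaffold of the granular part of the nucleolus. It had 1260.3 and 816 CPM in ATEV, 1142 and 912 CPM in NTEV, 1507 and 1290.3 CPM in DNase-treated ATEV and 1876 and 2046 CPM in PBS libraries. Its groups did not overlap with PBS, and its log2 fold change was -0.92 ± 0.23 for ATEV (adjusted p = 0.0684), -0.93 ± 0.23 for NTEV (adjusted p = 0.116) and -0.49 ± 0.23 for DNase-treated ATEV (adjusted p = 0.234). With the first ATEV library left out, the ATEV value was -1.22 ± 0.20 and passed (adjusted p = 0.0328). Npm1 has processed pseudogenes, so reads may be divided between near-identical copies.

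In the other 5 scaffold genes library 2 lay below library 1 in every EV group. Nolc1, a chaperone of snoRNPs, Tcof1 (treacle) and Mybbp1a, which act on ribosomal DNA transcription, Pa2g4 (EBP1), which associates with pre-ribosomes, and Gnl3 (nucleostemin), a GTP-binding nucleolar protein, had log2 fold changes against PBS between -0.62 and 0.070 for ATEV, between -0.70 and -0.15 for NTEV and between -0.76 and -0.21 for DNase-treated ATEV. Tcof1 was the only one of the 35 above 0 for ATEV (0.070 ± 0.49), where its libraries stood at 266 and 119 CPM against 165 and 202 CPM in PBS. Gnl3 overlaps Pbrm1 on the opposite strand, which held more counts, and the strand setting of the counting is not given in the sources used here, so its level is uncertain.

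**Figure D3:**
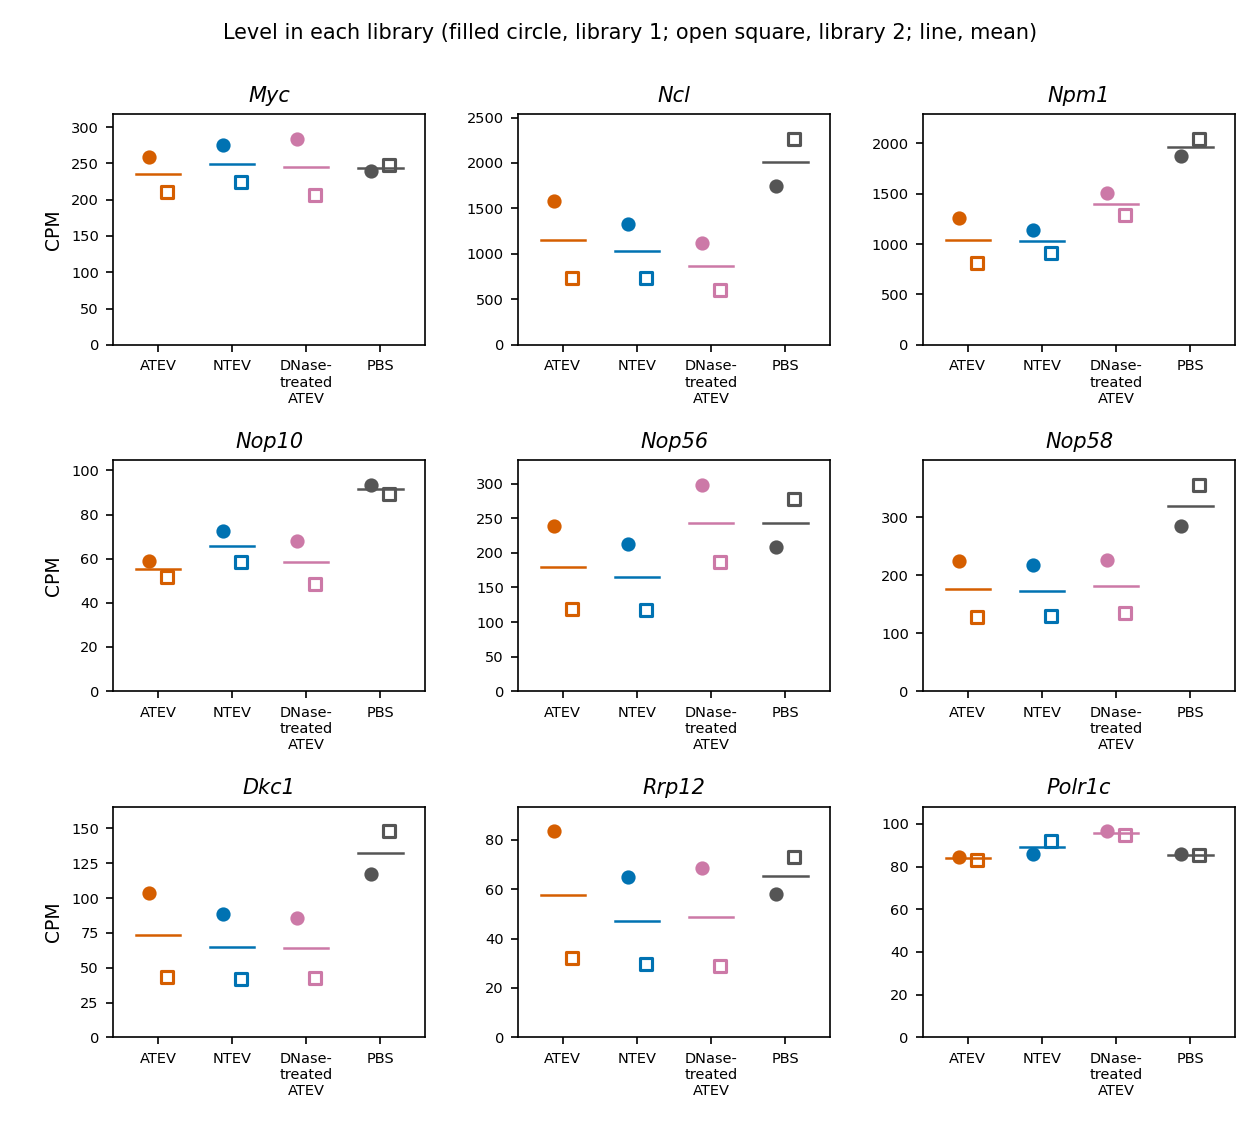
CPM of 9 of the genes in each library, with groups on the x axis from ATEV to PBS, a filled circle for library 1, an open square for library 2 and a line for the mean of the 2. In the EV groups the square lies below the circle for all panels but Polr1c in NTEV, and for Ncl, Npm1, Nop10, Nop58 and Dkc1 all EV points lie below both PBS points.

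Of the box C/D genes, Fbl encodes fibrillarin, the methyltransferase of these particles, Nop56 and Nop58 are its core partners, and Rrp9 belongs to the U3 particle that starts processing. Nop58, the most abundant of the 4 by CPM over all 8 libraries together, although Nop56 averaged more in ATEV and DNase-treated ATEV cells, had 225 and 129 CPM in ATEV, 218 and 129 CPM in NTEV, 226 and 135 CPM in DNase-treated ATEV and 285 and 356 CPM in PBS libraries. All EV libraries lay below both PBS libraries, at log2 fold changes of -0.86 ± 0.38, -0.88 ± 0.38 and -0.82 ± 0.38 (adjusted p = 0.244, 0.261 and 0.227). Fbl had 101.03 and 60.8 CPM in ATEV, 88.3 and 58.1 CPM in NTEV, 80.1 and 54.1 CPM in DNase-treated ATEV and 115 and 133 CPM in PBS libraries, again with no overlap, and its log2 fold change reached -0.89 ± 0.32 for DNase-treated ATEV (adjusted p = 0.150).

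Nop56 lay nearer to PBS. It had 239 and 120 CPM in ATEV, 212 and 117 CPM in NTEV, 298 and 187 CPM in DNase-treated ATEV and 209 and 277 CPM in PBS libraries, so that it overlapped with PBS in all EV groups and its log2 fold change for DNase-treated ATEV was -0.0012 ± 0.41. Rrp9 likewise overlapped with PBS in all EV groups, at -0.27, -0.50 and -0.29. Nop56 shares its locus with Idh3b and Rrp9 with Parp3, each on the opposite strand and each with counts of a like size, so both levels are uncertain.

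Of the box H/ACA genes, Dkc1 encodes dyskerin, the pseudouridine synthase that is also part of telomerase, and Gar1, Nhp2 and Nop10 complete the particle. Nhp2, the most abundant of the 4 by CPM, had 118 and 60.2 CPM in ATEV, 108 and 64.1 CPM in NTEV, 122 and 89.7 CPM in DNase-treated ATEV and 118 and 168 CPM in PBS libraries, and its log2 fold change was -0.68, -0.72 and -0.43, with overlap between EV and PBS libraries in ATEV and DNase-treated ATEV. Dkc1 had 104 and 43.1 CPM in ATEV, 88.4 and 42.1 CPM in NTEV, 86.1 and 42.5 CPM in DNase-treated ATEV and 117 and 148 CPM in PBS libraries. All EV libraries of Dkc1 lay below PBS, at -0.85 ± 0.53, -1.02 ± 0.53 and -1.04 ± 0.53 (adjusted p = 0.389, 0.322 and 0.268), and library 2 was at about the same level in the 3 EV groups. Mpp1, which overlaps Dkc1 on the opposite strand, held more counts than Dkc1 itself, so this level is uncertain too. Nhp2 overlaps Rmnd5b on the opposite strand, whose counts summed to 26.7% of those of Nhp2.

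Nop10, the smallest protein of the particle, had the narrowest range of the 4 over the 8 libraries. It had 59.0 and 51.8 CPM in ATEV, 72.4 and 58.7 CPM in NTEV, 67.9 and 48.8 CPM in DNase-treated ATEV and 93.4 and 89.4 CPM in PBS libraries. The groups did not overlap with PBS, and the log2 fold change was -0.72 ± 0.19 for ATEV (adjusted p = 0.0823), -0.48 ± 0.19 for NTEV (adjusted p = 0.244) and -0.65 ± 0.19 for DNase-treated ATEV (adjusted p = 0.108). Gar1 likewise lay below PBS in all 6 EV libraries, at -0.65, -0.78 and -0.84, with adjusted p of 0.275, 0.237 and 0.159. The H/ACA genes had the lowest median fold change of the role classes in each comparison with PBS, at -0.70, -0.75 and -0.74, over 4 genes.

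Among the small-subunit factors, Utp20, Heatr1 and Wdr43 belong to the large processome that handles the precursor, Rrp12 and Nob1 act on late particles, and Nob1 is the nuclease that makes the 3′ end of the small-subunit RNA. Wdr43, the most abundant of the 5 by CPM, had 197 and 107 CPM in ATEV, 173 and 102 CPM in NTEV, 171 and 100.4 CPM in DNase-treated ATEV and 177 and 230 CPM in PBS libraries. Library 1 of each EV group was near the lower PBS library and library 2 well below it, and the log2 fold changes were -0.42, -0.56 and -0.58. Rrp12 showed the widest split within groups of the 35, by -1.38 in ATEV, -1.12 in NTEV and -1.25 in DNase-treated ATEV (library 2 minus library 1, log2), against 0.34 in PBS. Its libraries stood at 83.4 and 32.0 CPM in ATEV, 64.8 and 29.7 CPM in NTEV, 68.5 and 28.8 CPM in DNase-treated ATEV and 57.8 and 73.1 CPM in PBS. Over the 5 genes the median log2 fold change against PBS was -0.22, -0.41 and -0.41. None of the 5 had both ATEV libraries below both PBS libraries, where 27.3% of all genes did so.

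Among the large-subunit factors, Pes1, Bop1 and Wdr12 form the PeBoW complex, Nop2 methylates the large-subunit RNA, Ddx18 and Ddx21 are RNA helicases, and Nop16, Nip7, Ebna1bp2, Rrp1b and Grwd1 (a chaperone of a ribosomal protein) act on pre-60S particles or in the nucleolus. Ddx21, the most abundant of the 11 by CPM, had 347 and 158 CPM in ATEV, 292 and 138 CPM in NTEV, 270.2 and 128 CPM in DNase-treated ATEV and 304 and 408 CPM in PBS libraries. Its log2 fold change was -0.50 ± 0.52, -0.73 ± 0.52 and -0.84 ± 0.52 (adjusted p = 0.614, 0.439 and 0.349). The 11 genes had median log2 fold changes of -0.41 for ATEV, -0.52 for NTEV and -0.54 for DNase-treated ATEV, with all 11 below 0 in each. Both EV libraries lay below both PBS libraries for 5, 7 and 9 of the 11, against 27.3%, 30.9% and 30.9% of all genes.

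Pes1 had the narrowest range of the large-subunit genes over the 8 libraries, 0.78 on the log2 scale, despite a split of -0.53 in DNase-treated ATEV. It had 183 and 141 CPM in ATEV, 173 and 157 CPM in NTEV, 172 and 119 CPM in DNase-treated ATEV and 196 and 205 CPM in PBS libraries. All EV libraries were below both PBS libraries, and the log2 fold change was -0.31 ± 0.20, -0.28 ± 0.20 and -0.46 ± 0.20 (adjusted p = 0.425, 0.448 and 0.219). Bop1, its partner, overlapped with PBS in all EV groups, and its locus is shared with Mroh1 on the opposite strand.

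Levels were set against length as mean CPM per kb of coding sequence. Gene counts can also include the untranslated parts of a transcript, so these values compare genes only roughly. Npm1 was highest in every group, at 1185 in ATEV, 1172 in NTEV, 1597 in DNase-treated ATEV and 2239 in PBS cells. Ncl came next, at 546, 488 and 407 in the EV groups and 946 in PBS. Heatr1 was lowest, at 10.6, 9.98 and 9.29 in the EV groups and 12.4 in PBS. It overlaps Lgals8 on the opposite strand, whose counts summed to 66.0% of those of Heatr1, so its level is uncertain. Myc, at 173 to 183 in the EV groups and 179 in PBS, was between these.

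Between EV groups none of the 35 genes passed in the model without a replicate block, where 1.19% of all genes passed for ATEV against NTEV, 0.665% for DNase-treated against untreated ATEV and 0.0526% for DNase-treated ATEV against NTEV. At an unadjusted p under 0.05, edgeR had 0 of the 35 in any of these comparisons, against 8.23%, 11.3% and 10% of all genes, and DESeq2 called 0, against 2.86%, 2.38% and 1.1%. The median log2 fold change was 0.099 for ATEV against NTEV, -0.15 for DNase-treated against untreated ATEV and -0.023 for DNase-treated ATEV against NTEV, and each of these signs turned when 1 library was left out. Over the leave-one-out fits the medians ran from -0.38 to 0.46, from -0.51 to 0.32 and from -0.41 to 0.32. Library 2 was the lower one for nearly all of the 35 genes in each EV group. Leaving 1 out therefore sets unlike libraries against each other, and these turns cannot show how stable a contrast is. With a replicate block fitted to the EV libraries only, 33, 32 and 35 of the 35 genes kept their direction, in the same order. Every EV group holds 1 library of each number, so such a block can hardly move these contrasts. The kept directions therefore cannot show how stable a contrast is either. The calls with that block are given in the last section.

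For ATEV against NTEV the values ran from -0.24 (Nop10), -0.087 (Polr1a) and -0.086 (Polr1c) to 0.23 (Rrp9), 0.23 (Ddx21) and 0.29 (Rrp12), with Myc at -0.085 ± 0.20 (adjusted p = 1.000). For DNase-treated against untreated ATEV they ran from -0.52 (Tcof1), -0.44 (Grwd1) and -0.42 (Ncl) to 0.42 (Gnl3), 0.43 (Npm1) and 0.44 (Nop56), with Myc at 0.062 ± 0.20 (adjusted p = 0.974). For DNase-treated ATEV against NTEV they ran from -0.32 (Polr1a), -0.29 (Tcof1) and -0.26 (Ncl) to 0.45 (Npm1), 0.45 (Gnl3) and 0.56 (Nop56), with Myc at -0.023 ± 0.20 (adjusted p = 0.987).

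Npm1 and Polr1c were the genes whose DNase-treated ATEV libraries both lay above both libraries of the other EV group, in each of these 2 comparisons. That pattern was shared by 19.4% of all genes against ATEV and 20.3% against NTEV. For Npm1 the log2 fold change was 0.43 ± 0.23 against ATEV (unadjusted p = 0.0990 from edgeR, adjusted p = 0.555) and 0.45 ± 0.23 against NTEV (adjusted p = 0.569). The 2 comparisons share the DNase-treated ATEV libraries.

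Other genes of the pathway, taken from lists of related factors, moved with the libraries in the same way. Of 45 further small-subunit factors, library 2 lay below library 1 for 44 in ATEV, 44 in NTEV and 44 in DNase-treated ATEV, against 3 in PBS. Of 45 further large-subunit factors it did so for 42, 42 and 45, against 3 in PBS, and of 46 other known Myc targets for 42, 42 and 44, against 5 in PBS. None of the factors of either subunit passed against PBS in any EV group. Their medians against PBS were -0.33, -0.41 and -0.43 for small-subunit factors and -0.28, -0.34 and -0.29 for large-subunit factors with ATEV, NTEV and DNase-treated ATEV. The smallest p of the small-subunit list belonged to Ddx10, a helicase, for ATEV (adjusted p = 0.218) and for DNase-treated ATEV (adjusted p = 0.0999) and to Utp3 for NTEV (adjusted p = 0.238).

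In the large-subunit list the smallest p was that of Nop53, a factor known to link the exosome to pre-60S particles, which was higher with ATEV (139 ± 0.697 CPM) and with NTEV (139 ± 13.2 CPM) than with PBS (98.8 ± 1.65 CPM, SD, n = 2 each), at adjusted p of 0.0745 and 0.123. For DNase-treated ATEV it was that of Las1l, an endonuclease of pre-ribosomal RNA, at -0.56 ± 0.15 (adjusted p = 0.0915). Of 13 further genes of the RNA polymerase I machinery and 13 of the RNA exosome, 0 passed in any of these comparisons by edgeR. Their medians were -0.28, -0.27 and -0.23 for the polymerase list, whose smallest p were those of the subunit gene Polr1d for ATEV (-0.32, adjusted p = 0.281), of Baz2a, a silencer of ribosomal DNA, for NTEV (0.43, adjusted p = 0.169) and of Cd3eap, a polymerase subunit, for DNase-treated ATEV (-0.94, adjusted p = 0.133). The exosome list had medians of -0.37, -0.55 and -0.41. C1d, an exosome cofactor, was at 37.9 ± 0.104 CPM in ATEV, 37.9 ± 4.0 CPM in NTEV, 38.3 ± 6.93 CPM in DNase-treated ATEV and 61.3 ± 7.26 CPM in PBS cells, with adjusted p of 0.0708, 0.120 and 0.0824.

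Among the 46 other Myc targets, Hk2, which encodes the glycolytic enzyme hexokinase, was the only call. It rose with ATEV, at 326 and 219 CPM against 121 and 127 CPM in PBS libraries (log2 fold change 1.14 ± 0.23, adjusted p = 0.0365). Of the other 45, 43 were below 0 in that comparison. With NTEV and with DNase-treated ATEV no gene of that list passed, and the smallest p were those of Eif4a1, a translation initiation helicase (-0.72, adjusted p = 0.164), and Tfrc, the transferrin receptor (-0.86, adjusted p = 0.0844). In the Myc network (20 genes, Max and Mxd genes among them), Trrap, a scaffold of acetyltransferase complexes that MYC recruits, rose with NTEV, at 254 and 272 CPM against 156 and 136 CPM in PBS libraries (0.85 ± 0.13, adjusted p = 0.0407). For ATEV and DNase-treated ATEV the smallest p in the network were those of Mlxipl (2.58, adjusted p = 0.0757) and Mycl (3.07, adjusted p = 0.0623), both of low level. The network list did not share the pattern by library, with library 2 below library 1 for 13, 13 and 10 of 20 genes in the EV groups and 9 in PBS.

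Cytosolic ribosomal proteins, the other product that assembly needs, had smaller differences between libraries. Library 2 lay below library 1 for 69 of 79 in ATEV, 12 of 79 in NTEV, 60 of 79 in DNase-treated ATEV and 30 of 79 in PBS, with median differences of -0.13, 0.14, -0.26 and 0.021. Against PBS, 69 of the 79 lay below 0 for ATEV, 63 for NTEV and 51 for DNase-treated ATEV, with 10, 16 and 28 above 0. The medians were -0.23, -0.16 and -0.13. Both EV libraries lay below both PBS libraries for 59, 47 and 34 of the 79, against 27.3%, 30.9% and 30.9% of all genes. Rps29 fell in all 3 comparisons with PBS and was the only ribosomal protein gene to pass. It had 146 and 139 CPM in ATEV, 148 and 158 CPM in NTEV, 175 and 138 CPM in DNase-treated ATEV and 277 and 295 CPM in PBS libraries, with log2 fold changes of -1.0025 ± 0.15 (adjusted p = 0.0127), -0.90 ± 0.15 (adjusted p = 0.0426) and -0.87 ± 0.15 (adjusted p = 0.0326). Genes of this family have many processed pseudogenes, so its counts are uncertain.

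Of 17 genes of p53 and nucleolar stress signalling, 2 rose with ATEV and with DNase-treated ATEV. Bbc3 (PUMA), a pro-apoptotic protein, had 16.7 and 17.8 CPM in ATEV, 20.6 and 19.0 CPM in DNase-treated ATEV and 8.86 and 8.84 CPM in PBS libraries (adjusted p = 0.0354 and 0.0301), and in NTEV it had 13.2 and 17.7 CPM (adjusted p = 0.109). Fas, a death receptor, had 13.1 and 7.94 CPM in ATEV, 3.75 and 4.41 CPM in DNase-treated ATEV and 0.311 and 0.547 CPM in PBS libraries (adjusted p = 0.00247 and 0.0188), and it was also higher with ATEV than with NTEV (0.352 and 0.572 CPM, adjusted p = 0.00441), which was the only call among these pathway lists between EV groups. The clone carries mutant Trp53, and the list's median was 0.047, 0.12 and 0.017 for ATEV, NTEV and DNase-treated ATEV against PBS.

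Proliferation genes moved with the libraries as well. 3 lists written after the values had been seen were used to describe this, with no test. Of 21 DNA replication genes, library 2 lay below library 1 for 21 in each EV group and for 0 in PBS, and the median deviation from each gene's mean was 0.71 and -0.60 in ATEV, 0.26 and -0.82 in NTEV, 0.12 and -0.72 in DNase-treated ATEV and 0.35 and 0.64 in PBS libraries (log2 CPM). Of 18 mitosis genes it did so for 18, 18 and 17, against 4 in PBS. Of 12 genes of the ATF4 response to amino acid stress it did so for 9, 8 and 8, against 8 in PBS, with median differences between library 2 and library 1 of -0.70, -0.60 and -0.97 in the EV groups and -0.068 in PBS (log2 CPM). Against PBS all 21 DNA replication genes lay below 0 in each EV group, at medians of -0.33 for ATEV, -0.69 for NTEV and -0.80 for DNase-treated ATEV. Of the mitosis genes 12, 16 and 18 lay below 0, at medians of -0.11, -0.44 and -0.64 in the same order. Of the 12 ATF4 genes 6, 9 and 6 lay below 0, at medians of 0.041, -0.39 and -0.0040. The part of cell cycle differences between libraries in the values of the 35 genes was not tested.

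**Figure D4:**
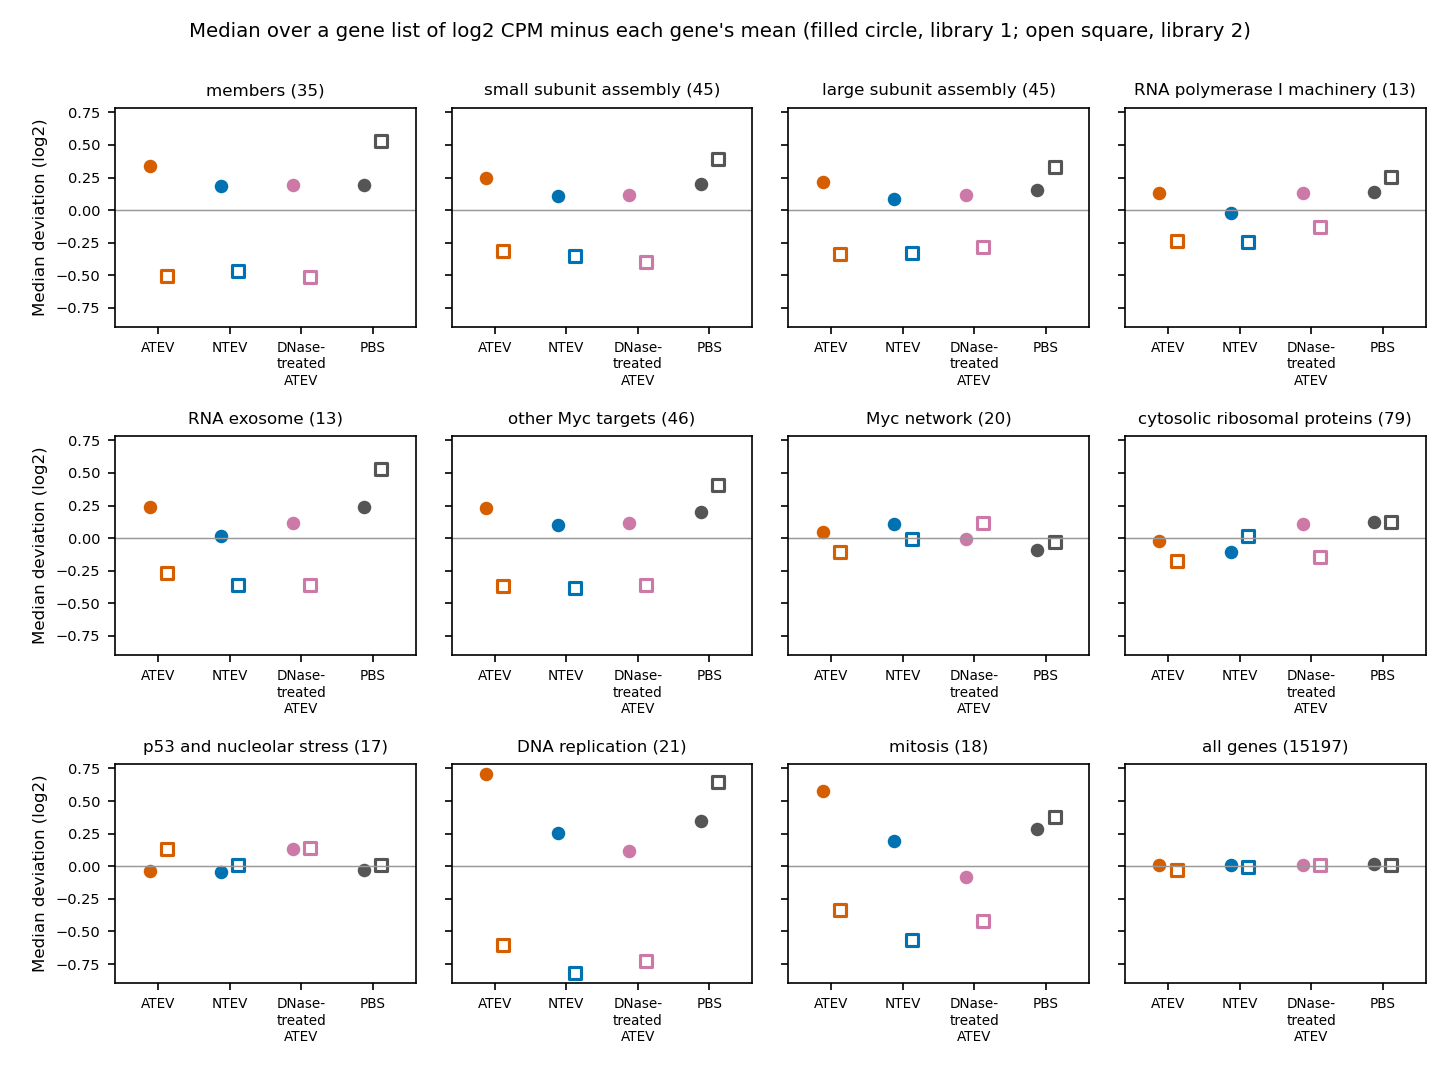
Median over each gene list of log2 CPM minus each gene's mean over the 8 libraries, per library (filled circle, library 1; open square, library 2), with groups on the x axis from ATEV to PBS and the number of genes in brackets. The 35 genes, the assembly factors, the other Myc targets, DNA replication and mitosis split by library in the EV groups in one direction, with medians of the 35 genes at 0.34 and -0.51 in ATEV and 0.19 and 0.53 in PBS, whereas the Myc network, the p53 list and all genes lie near 0.

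Measures of RNA composition also differed between PBS and EV libraries. Lars2 and Gm15564, loci to which reads of ribosomal RNA are often assigned, fell in every EV group. Lars2 had 159 and 186 CPM in ATEV, 171 and 207 CPM in NTEV, 158 and 157 CPM in DNase-treated ATEV and 879 and 1000.3 CPM in PBS libraries, with adjusted p of 0.000836, 0.00368 and 0.00170. Gm15564 averaged 3.20 ± 0.728, 3.0002 ± 0.649 and 2.83 ± 0.368 CPM in these EV groups and 24.9 ± 4.58 CPM in PBS cells. Gm26917 stood at 46.5 to 79.5 CPM in EV libraries and at 23.7 and 30.7 CPM in PBS libraries, while Gm42418 overlapped between the groups, at 707 to 989.9 CPM and at 476 and 1331 CPM.

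Log2 fold changes against PBS also followed transcript GC content across 12732 protein-coding genes, with Spearman's rho of 0.38 for ATEV, 0.39 for NTEV and 0.32 for DNase-treated ATEV, as a description across genes that share libraries. The median GC content of the 35 genes was 50.8%, near the coding median of 50.7%. Within the 35 genes the fold change against PBS also followed GC content, with Spearman's rho of 0.59 for ATEV, 0.48 for NTEV and 0.32 for DNase-treated ATEV (n = 35 genes that share libraries). With an offset for GC content the medians of the 35 genes against PBS were -0.48, -0.54 and -0.50. The part of RNA composition in the values of single genes was not tested beyond this.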

How the data were processed

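The measurements are gene counts in whole numbers, deposited by the authors with 1 column for each library and Ensembl identifiers. The labels' protocols give column extraction of total RNA and a stranded mRNA kit. Tools in the submitters' processing notes are TopHat2 2.0.11, TopHat, Cufflinks 2.1.1 and bcl2fastq 2.19, with the build mm9. Counting tool, strand setting and annotation: not given in the sources used here, which leaves overlapping genes and near-identical copies uncertain. Symbols for 42250 identifiers, gene classes, GC content and coding length came from GENCODE M21.

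In R 4.3.3, edgeR 4.0.16 kept 15197 genes by expression in groups, scaled them by TMM and estimated 1 mean per group by quasi-likelihood over all 8 libraries (4 residual degrees of freedom, common biological coefficient of variation 0.226). P-values were two-sided and Benjamini-Hochberg adjusted over all tested genes, with a threshold of 0.05. An exact permutation test of 2 libraries against 2 cannot go below 0.333. Log2 CPM used a prior count of 2. Chi-square per gene within a group was 145, 92.0, 100.4 and 39.0 for ATEV, NTEV, DNase-treated ATEV and PBS, so the libraries of a group were not copies of each other. A further allele of the mouse model is not reported here.

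The 35 genes and the lists were chosen with earlier results of these data known, and 3 lists (DNA replication, mitosis, amino acid stress) after seeing the values. Named are Myc, the 3 highest and 3 lowest genes per comparison, the gene of highest mean CPM per role, and in other lists up to 3 calls per direction or the smallest p. Genes named otherwise were chosen after their values were seen. Alternatives were DESeq2 1.42.0, other scalings, no filter, the compared groups alone, coding genes alone, a GC offset (loess span 0.3), leaving out libraries and a replicate block.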

Additional observations from a re-analysis of the deposited data

How the results depend on the processing

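With 2 libraries a group, a single library decides much of the size of a difference. Against PBS the median of the 35 genes stayed below 0 in every setting tried, while Myc and the medians between EV groups changed sign in several, and the cause was not tested.

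Calls among the 35 genes against PBS were 0 in the main model. With DESeq2 they numbered 2 (ATEV), 1 (NTEV) and 0 (DNase-treated ATEV), and with no filter 3, 1 and 3. They were 1, 0 and 0 with upper-quartile scaling, where 756, 146 and 401 of all genes passed. The 3 calls for DNase-treated ATEV with no filter were all lower (Ncl, Fbl and Gar1). The counts over all genes, 788, 169 and 458 against PBS and 181 (ATEV against NTEV), 101 (DNase-treated against untreated ATEV) and 8 (DNase-treated ATEV against NTEV), were 1471, 768, 1513, 469, 356 and 170.0 with DESeq2, and 1454, 773, 1520.0, 459, 343 and 180.0 with no filter. With only the 2 groups compared they were 454 for ATEV against PBS and 51, 47 and 2 between EV groups. With protein-coding genes alone they were 371, 1 and 35 against PBS, and with a GC content offset 301 for DNase-treated ATEV against PBS.

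The offset turned the Myc value to -0.17 for NTEV and -0.19 for DNase-treated ATEV against PBS. For DNase-treated ATEV against NTEV, both the median of the 35 genes and Myc, which was the median gene, were 0.015 with upper-quartile scaling and 0.035 with library totals. With EV libraries numbered 1 and both PBS libraries, chosen after seeing the data, Myc was 0.083 for ATEV, and with those numbered 2 it was -0.12 for NTEV and -0.24 for DNase-treated ATEV. The medians against PBS were then -0.038, -0.22 and -0.20 with number 1 and -0.88, -0.86 and -0.90 with number 2.

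Leaving out each library in turn gave 0 to 1 calls among the 35 for ATEV against PBS (Npm1, without ATEV library 1) and 0 in the other comparisons. All-gene counts ran from 131 to 562, from 5 to 125 and from 11 to 382 against PBS, and from 71 to 166, from 27 to 99 and from 1 to 10 between EV groups, in the order above. The medians ran from -0.88 to -0.035, from -0.83 to -0.23 and from -0.87 to -0.22 against PBS, and from -0.38 to 0.46, from -0.51 to 0.32 and from -0.41 to 0.32 between EV groups. Myc ran from -0.16 to 0.088, from -0.082 to 0.17 and from -0.20 to 0.23 against PBS, and from -0.22 to 0.059, from -0.18 to 0.25 and from -0.26 to 0.18 between EV groups. A lone library was assumed to vary like the other groups.

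The labels do not tie libraries of the same number to each other. Across all genes, same-numbered deviations from the group mean correlated at 0.49 to 0.55 between EV groups. Between EV groups and PBS they correlated at -0.24 to -0.14. Within the 35 genes the values were 0.94 for ATEV with NTEV and 0.77 for ATEV with DNase-treated ATEV. For NTEV with DNase-treated ATEV the value was 0.83. With PBS, the values within the 35 genes were -0.66 for ATEV, -0.65 for NTEV and -0.39 for DNase-treated ATEV. With a replicate block, 2 of the 35 passed for ATEV (Npm1 and Nop10) and 1 for DNase-treated ATEV (Nop10) against PBS, and the all-gene counts were 1182 for ATEV, 330.0 for NTEV and 1052 for DNase-treated ATEV against PBS and 24 for DNase-treated ATEV against NTEV. Myc was -0.013 for DNase-treated ATEV against PBS. The block with the GC content offset gave 1 call of the 35 for ATEV against PBS, where 811 of all genes passed, 17 calls over all genes for DNase-treated ATEV against NTEV, and Myc at -0.20 for NTEV and -0.21 for DNase-treated ATEV against PBS. A block fitted to the EV libraries only, added after seeing the data, gave 1087, 1736 and 793 calls over all genes between EV groups. Of the 35 it called 4 for DNase-treated against untreated ATEV (Npm1 and Nop56 higher, Tcof1 and Ddx21 lower) and 1 against NTEV (Nop56 higher).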
